A study of Mus musculus with 15 samples.

Results

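The S42D line was compared with the Tw1KD line it was made from, to show which transcripts differ when Twist1 carrying aspartate at residue 42 is put back into Twist1-depleted cells. Both are derivatives of 4T1, a transplantable and metastatic mouse mammary carcinoma line. The members are the 6 arrays whose titles name these lines, 3 of S42D and 3 of Tw1KD, out of 15 arrays in the study. S42D cells are Tw1KD cells that express Twist1 S42D; Tw1KD cells are 4T1 cells depleted of Twist1. The other arrays, 3 per line, come from Tw1KD cells with Twist1 S42A, Tw1KD cells with wild-type Twist1 (WT) and parental 4T1 cells. Because the genotype field of the S42D arrays lists S42A as well as S42D, the line is identified here by its title. The labels describe a culture medium with puromycin and G418 for all lines, without saying whether parental cells were grown differently. How Twist1 was depleted, which promoter drives the constructs and whether a line is a clone or a pool are not given in the sources used here.

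Twist1 is a basic helix-loop-helix transcription factor that binds DNA as a dimer at E-boxes, the letters CANNTG. It is known for driving the epithelial-mesenchymal transition, in which carcinoma cells lose cadherin-based junctions and take on a motile, matrix-producing state. Serine 42 is known as a site phosphorylated by Akt, a kinase downstream of phosphoinositide 3-kinase (PI3K). Aspartate at that place carries a charge resembling that of a phosphate, whereas alanine cannot be phosphorylated.

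Expression values are log2 intensities, 1 probe set per gene, for 19937 genes. The median standard deviation within a line was 0.066 log2, and precision is limited by the number of arrays, 3 per line. Across genes, the S42D arrays correlated at 0.9985 to 0.9989 with each other and at 0.975 to 0.978 with the Tw1KD arrays. Their correlation with arrays of the other lines was 0.9844 to 0.9871 for parental cells, 0.9833 to 0.9848 for S42A and 0.9799 to 0.9805 for WT. Array medians lay between 6.57 and 6.72, so the arrays shared a common scale, and any change common to all transcripts is not visible. The keratin genes Krt8 (13.11 in S42D and 12.89 in Tw1KD) and Krt18 (12.66 and 12.71 in the same order) were bright in both lines, as in cells of epithelial origin. The epithelial marker Epcam averaged 5.63 in S42D and 9.76 in Tw1KD. Of 10 mammary carcinoma identity genes, 4 were called lower in S42D at an adjusted p under 0.05 (Epcam, Cdh1, Krt19 and Erbb2). Another 2, Esr1 and Krt8, were called higher, beside 21.7% of all genes in each direction. The leukocyte marker Ptprc stood at 5.11 in S42D and 5.13 in Tw1KD, and the endothelial marker Pecam1 at 5.52 and 5.60 in the same order; 25% of all line means lay below 5.5. Other members of these marker lists differed, and the leukocyte gene Cd53 and the endothelial gene Cdh5 were far higher in S42D, as given below. In bulk RNA, fewer cells of a type and less RNA per cell cannot be told apart.

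Twist1 was read by probe set 10395320. Its log2 levels were 9.07, 8.96 and 8.97 in S42D replicates 1 to 3, against 7.47, 7.23 and 7.35 in Tw1KD. All S42D arrays were above all Tw1KD arrays, and the difference was 1.65 ± 0.080 (log2 ± SE, n = 3 each, 3.15-fold, limma adjusted p = 5.2e-10). The S42D level was -0.034 ± 0.080 from the parental level (adjusted p = 0.78), and it lay above S42A by 0.29 ± 0.080 and above WT by 0.67 ± 0.080. Whether this probe set reads the transcript of the construct is not known, and its level cannot tell S42D from S42A.

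Return of S42D was accompanied by wide differences from Tw1KD. Of 19937 genes, 8646 were called at an adjusted p under 0.05, which is 43.4% of those tested, with 4321 higher (21.7%) and 4325 lower (21.7%). Calls whose arrays did not overlap between the lines made up 21.2% of genes as higher and 20.6% as lower. The shares of 21.7% in each direction are the background for every list count against Tw1KD below. The median difference over all genes was -0.0448. At least 2-fold differences were found for 591 genes that were higher and 317 that were lower, at least 4-fold ones for 160 and 81, and at least 8-fold ones for 60 and 39. At each of these sizes the rises outnumbered the falls. The near-even split of all calls depended on the processing, with 4566 higher and 3232 lower after median centring (58.6% higher) and 4526 higher and 5247 lower with array weights (46.3% higher). Every p-value measures the spread between these arrays, since the labels do not say whether replicates came from separate cultures. Folds are understated where the lower line was in this dim range, below 5.5 log2; this held for 98 of the genes called at least 2-fold.

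**Figure D1:**
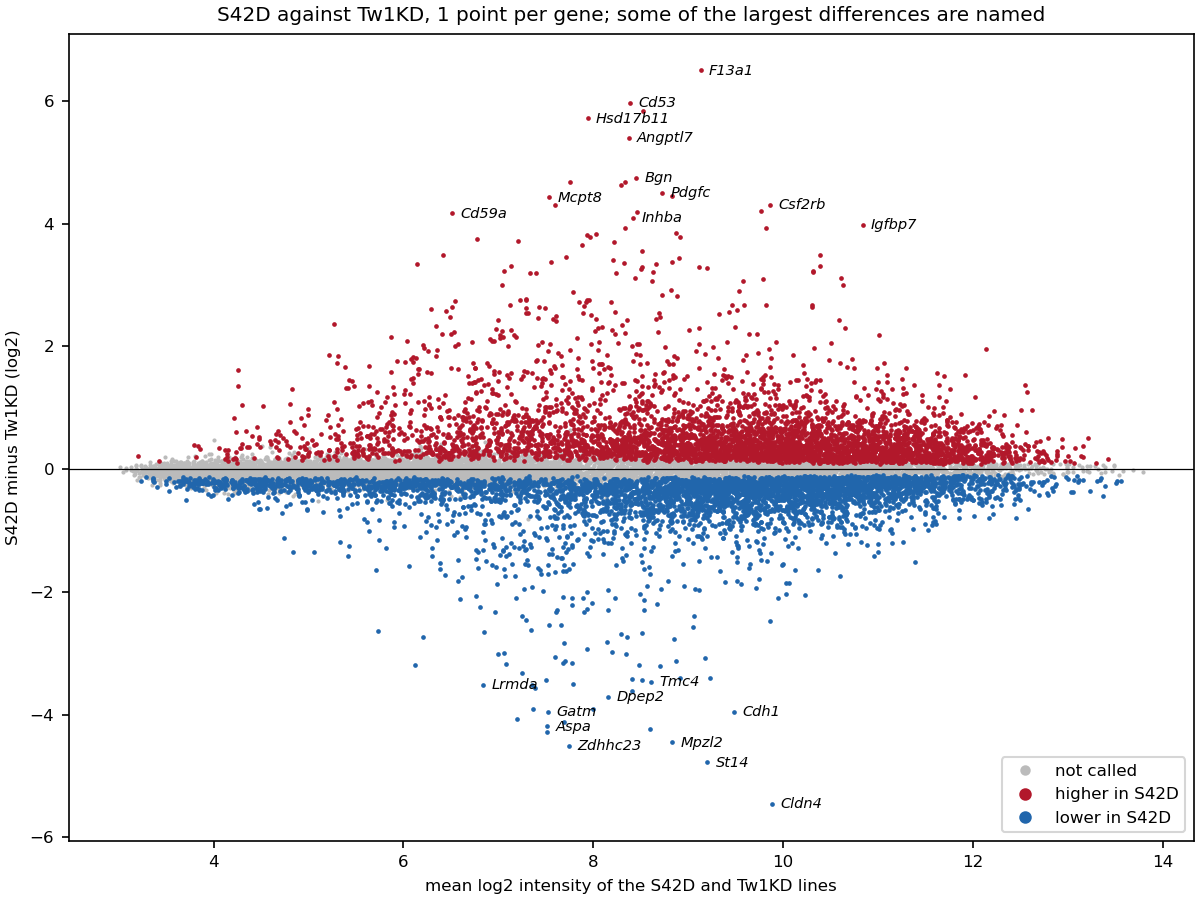
Difference between S42D and Tw1KD (log2, vertical axis) against the mean log2 intensity of both lines (horizontal axis), with 1 point for each of 19937 genes; red points were called higher in S42D, blue points lower and grey points were not called. F13a1 lies highest at 6.50 and Cldn4 lowest at -5.46, and more red than blue points lie far from 0.

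The promoters of 4 genes that carry the main contrasts are shown before their values, since Twist1 is known to bind E-boxes: Cldn4 and Epcam, which were lower in S42D, and Tgfb2 and Pdgfra, which were higher. Each is the RefSeq sequence (GRCm38.p6) of the 250 bases before the start of the gene, written 5′ to 3′ on the strand of the gene. Capitals mark each CANNTG, which reads as CANNTG on the other strand too.
Cldn4, chr5:134946935-134947184, minus strand: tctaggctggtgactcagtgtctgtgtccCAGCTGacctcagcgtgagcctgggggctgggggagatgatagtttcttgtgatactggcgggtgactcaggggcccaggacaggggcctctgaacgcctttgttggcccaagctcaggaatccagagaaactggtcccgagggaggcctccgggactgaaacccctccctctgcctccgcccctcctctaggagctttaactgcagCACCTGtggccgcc
Epcam, chr17:87635729-87635978, plus strand: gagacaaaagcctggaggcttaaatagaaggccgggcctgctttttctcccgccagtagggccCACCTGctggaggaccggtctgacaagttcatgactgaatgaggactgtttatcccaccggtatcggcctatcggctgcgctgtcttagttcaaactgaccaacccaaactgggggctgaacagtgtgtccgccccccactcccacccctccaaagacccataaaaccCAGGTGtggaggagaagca
Tgfb2, chr1:186705990-186706239, minus strand: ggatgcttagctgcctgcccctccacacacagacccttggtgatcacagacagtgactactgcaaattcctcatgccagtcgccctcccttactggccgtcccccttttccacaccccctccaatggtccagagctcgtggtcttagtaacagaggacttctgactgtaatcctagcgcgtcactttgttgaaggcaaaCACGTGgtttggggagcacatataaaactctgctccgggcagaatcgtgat
Pdgfra, chr5:75152001-75152250, plus strand: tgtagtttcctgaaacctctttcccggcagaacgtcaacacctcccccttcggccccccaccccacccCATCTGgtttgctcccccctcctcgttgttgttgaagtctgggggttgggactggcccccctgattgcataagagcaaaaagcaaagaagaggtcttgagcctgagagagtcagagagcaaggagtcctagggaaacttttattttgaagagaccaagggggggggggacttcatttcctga
Cldn4 holds CAGCTG and CACCTG, starting 221 and 14 bases before the gene start. Epcam holds CACCTG and CAGGTG, the same letters read from opposite strands, starting 187 and 19 bases before it. Tgfb2 holds CACGTG 51 bases before its start and Pdgfra holds CATCTG 182 bases before its start.

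Such motifs are common, so the shares among all promoters stand beside them. Of 15613 genes tested here that had a promoter in the table, 61.8% held at least 1 CANNTG and 16.6% held CACCTG or its reverse complement CAGGTG in these 250 bases. Of 39 epithelial genes called lower in S42D, 19 had a promoter entry; 13 of these (68.4%) held CANNTG and 10 (52.6%) held CACCTG or CAGGTG. Of 13 mesenchymal and matrix genes called higher, 11 had an entry; 7 (63.6%) held CANNTG and 1 (9.09%) held CACCTG or CAGGTG. Among the 20 largest rises and the 20 largest falls, 12 of 15 promoters (80.0%) and 7 of 12 (58.3%) held CANNTG. In the same sets, 2 of 15 (13.3%) and 6 of 12 (50.0%) held CACCTG or CAGGTG. No promoter of any of these 4 sets held CATATG, which was in 2.5% of all promoters. Another E-box form, CATCTG or its reverse complement CAGATG, was in 12.1% of all promoters, in 1 of the 19 epithelial ones and in 3 of the 11 mesenchymal ones. The sets share members, such as Cldn4 and Epcam among both the epithelial genes and the largest falls. Cdh1 and St14 had no promoter entry. Epithelial genes that were not called lower were not counted. Whether the CACCTG share goes with the fall or with being an epithelial gene was therefore not tested. A motif match describes letters in this window and is no evidence of binding.

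Many epithelial junction genes were lower in S42D, led by the barrier protein claudin-4. Cldn4 had log2 levels of 6.79, 7.22 and 7.45 in S42D, against 12.64, 12.58 and 12.63 in Tw1KD. The groups were far apart, and S42D was lower by 44.0-fold (-5.46 ± 0.12, adjusted p = 1.8e-13). Of 18 tight junction and polarity genes, 13 were called lower and 3 higher, beside 21.7% of all genes in each direction, and the list median was -0.452. Claudin-3, Cldn3, was lower (7.81, 7.90 and 7.90 in S42D, against 10.28, 10.19 and 10.31 in Tw1KD; -2.39 ± 0.11), as were the tricellulin gene Marveld2 (-3.18 ± 0.072) and its relative Marveld3 (-1.76 ± 0.11). The members called higher were Cldn1 (0.42 ± 0.10), the cingulin-like gene Cgnl1 (0.40 ± 0.053) and the scaffold gene Tjp1 (0.16 ± 0.042), all by small amounts, and the call of Tjp1 was lost with quantile normalization (0.11, adjusted p = 0.059).

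In adherens junctions E-cadherin was lower, while the alpha, beta and p120 catenins were not. Cdh1, the gene of E-cadherin, had 7.58, 7.46 and 7.46 in S42D, against 11.45, 11.46 and 11.46 in Tw1KD. No array overlapped, and the difference was -3.95 ± 0.045 (15.5-fold lower, adjusted p = 6.3e-16). The plakoglobin gene Jup (-0.55 ± 0.040) and the nectin gene Nectin1 (-0.41 ± 0.065) were also lower. The catenin genes Ctnnd1 (0.24 ± 0.046), Ctnna1 (0.17 ± 0.038) and Ctnnb1 (0.13 ± 0.034) were slightly higher. Thus 3 of 11 members were called in each direction, beside 21.7% of all genes. The call of Ctnnb1 was lost when the arrays of these 2 lines were fitted alone (adjusted p = 0.064).

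Desmosomes, which anchor keratin filaments at cell contacts, were called lower for 6 of 11 measured genes, with none higher and a median of -0.303. Desmoplakin, Dsp, stood at 6.36, 6.38 and 6.71 in S42D, against 10.62, 10.79 and 10.74 in Tw1KD (-4.24 ± 0.087). The desmosomal cadherin gene Dsg2 stood at 5.19, 5.34 and 5.69 in S42D, against 9.38, 9.23 and 9.33 in Tw1KD (-3.91 ± 0.10). In both genes the highest S42D array was more than 3 log2 units below the lowest Tw1KD array. Perp (-1.55 ± 0.091) and the plakophilin gene Pkp3 (-0.96 ± 0.049) were lower by less. Keratins moved less as a group: of 11, Krt19 (-2.48 ± 0.081), Krt14 (-0.42 ± 0.080) and Krt80 (-0.38 ± 0.045) were lower and Krt8 was higher (0.22 ± 0.034), with a median of -0.0712.

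Epithelial surface molecules and membrane proteases were called lower for 7 of 11 members and higher for 1, with a median of -0.772. The matriptase gene St14, a membrane serine protease of epithelia, had 6.81, 6.84 and 6.78 in S42D, against 11.61, 11.59 and 11.58 in Tw1KD (-4.78 ± 0.060, 27.5-fold lower). Epcam, the epithelial cell adhesion molecule, had 5.49, 5.69 and 5.71 in S42D, against 9.95, 9.22 and 10.10 in Tw1KD (-4.13 ± 0.21). Tw1KD replicate 2 was the lowest of its line for Epcam, but still more than 3 log2 units above every S42D array. The adhesion gene Mpzl2 (-4.46 ± 0.11) and the membrane protein gene Tmc4 (-3.46 ± 0.071) were lower, and the protease inhibitor gene Spint2 was slightly higher (0.12 ± 0.036), a call lost with quantile normalization (0.09, adjusted p = 0.053) and when the arrays of these 2 lines were fitted alone (0.12, adjusted p = 0.066).

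Regulators of the epithelial state were lower for 7 of 16 members and higher for 1, with a median of -0.19. The splicing regulator Esrp2 (7.83, 7.63 and 7.74 in S42D, against 9.69, 9.57 and 9.82 in Tw1KD; -1.96 ± 0.064), the zinc finger repressor Ovol1 (-1.50 ± 0.097), the pioneer factor Foxa1 (-1.44 ± 0.083) and Klf5 (-0.83 ± 0.041) were lower. The luminal factor Gata3 was higher (0.57 ± 0.036).

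**Figure D2:**
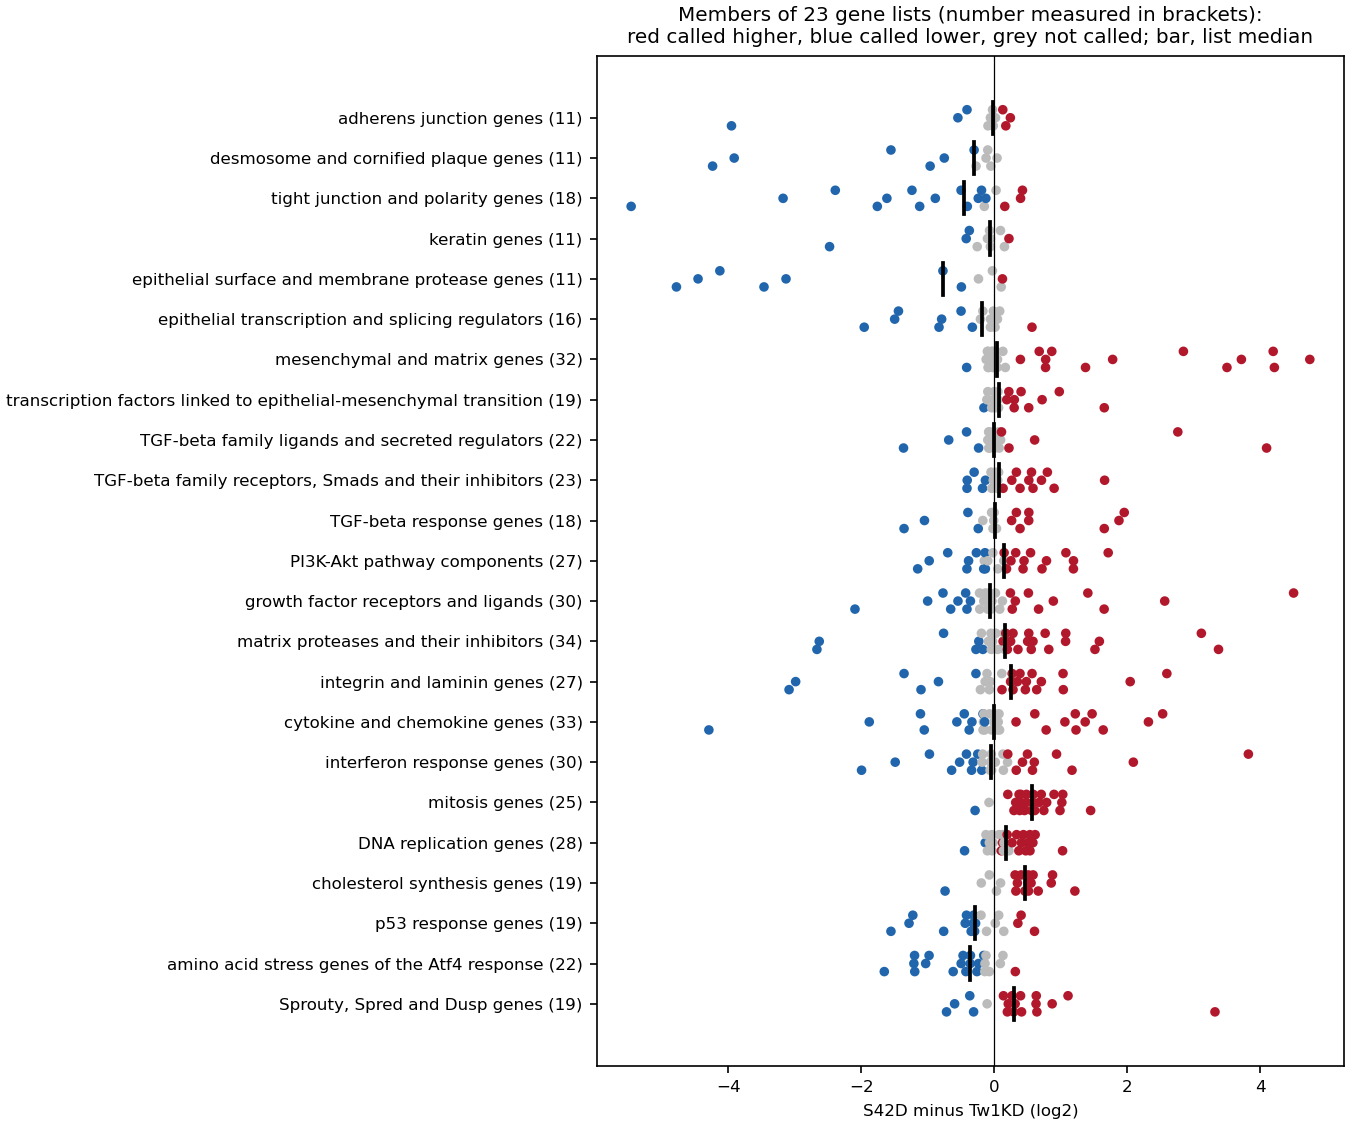
Difference between S42D and Tw1KD (log2, horizontal axis) for each measured member of 23 gene lists; red dots were called higher in S42D, blue dots lower, grey dots were not called, and the black bar is the list median. Tight junction (median -0.452) and epithelial surface genes (-0.772) lie to the left, and mitosis (0.562) and cholesterol synthesis genes (0.46) to the right.

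Mesenchymal and matrix genes were called higher for 13 of 32 members and lower for 1, Cdh11 (-0.42 ± 0.072), and the list median was 0.0464, with 18 members not called. Biglycan, Bgn, a small matrix proteoglycan, had 10.85, 10.81 and 10.82 in S42D, against 5.99, 6.33 and 5.92 in Tw1KD (4.75 ± 0.094, 26.8-fold). The collagen VI chain gene Col6a1 had 11.84, 11.90 and 11.86 in S42D, against 7.52, 7.78 and 7.67 in Tw1KD (4.21 ± 0.056, 18.5-fold). Both genes had S42D arrays within 0.1 log2 of each other and no overlap with Tw1KD. The proteoglycan gene Ogn was higher by 3.72 ± 0.11 and the matrix protein gene Dpt by 3.50 ± 0.12. The widely used markers Vim (13.49, 13.54 and 13.5 in S42D, against 13.46, 13.45 and 13.47 in Tw1KD), Fn1 (-0.04 ± 0.037), Cdh2 (0.0052 ± 0.061) and Snai2 (-0.097 ± 0.064) were not called (adjusted p = 0.27, 0.42, 0.96 and 0.25). Vim and Fn1 lay near the top of the intensity range, and Cdh2 and Snai2 lay in the dim range. Vim was called higher with quantile normalization (0.09, adjusted p = 0.019) and with the trend and robust settings of eBayes (0.05, adjusted p = 0.028).

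Platelet-derived growth factor receptors, which bind PDGF on mesenchymal cells, were both higher. Pdgfra had 11.33, 11.43 and 11.37 in S42D, against 9.61, 9.60 and 9.58 in Tw1KD (1.78 ± 0.043, 3.44-fold). Pdgfrb had 10.49, 10.58 and 10.59 in S42D, against 6.39, 6.55 and 6.15 in Tw1KD (4.19 ± 0.076, 18.3-fold). The ligand gene Pdgfc was higher too (11.04, 10.94 and 10.95 in S42D, against 6.50, 6.58 and 6.36 in Tw1KD; 4.5 ± 0.073). Nrg1 (2.56 ± 0.097), Fgfr1 (1.65 ± 0.074) and Flt1 (1.41 ± 0.081) were higher, and the ErbB receptor genes Erbb3 (-2.10 ± 0.086) and Erbb2 (-0.77 ± 0.042) and the ligand genes Btc (-1.0 ± 0.10) and Tgfa (-0.66 ± 0.046) were lower. Not every relative differed in this way: Pdgfd (-0.074) and Erbb4 (-0.22) were not called, and Nrg1, which encodes a ligand of ErbB receptors, was higher. Over all 30 growth factor receptor and ligand genes, 10 were higher and 8 lower (median -0.06), beside 21.7% of all genes in each direction.

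Of 12 fibroblast marker genes, 4 were called higher (Pdgfrb, Dpt, Pdgfra and Dcn) and none lower, beside 21.7% of all genes in each direction. Col1a1, Col1a2, Col3a1, Lum, Thy1 and Fap were not called. The sum of the 12 log2 levels ranged over 83.9 to 85.2 on S42D arrays and 73.3 to 75.9 on Tw1KD arrays. Without the 4 called genes, left out after their values were seen, the other 8 summed to 47.7 to 48.7 on S42D arrays and 47.6 to 49.4 on Tw1KD arrays. Lum (3.66 in S42D and 3.74 in Tw1KD) and Fap (4.26 and 4.21 in the same order) stayed in the dim range. Whether fibroblast-like cells have a part in the matrix gene differences was not tested.

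**Figure D3:**
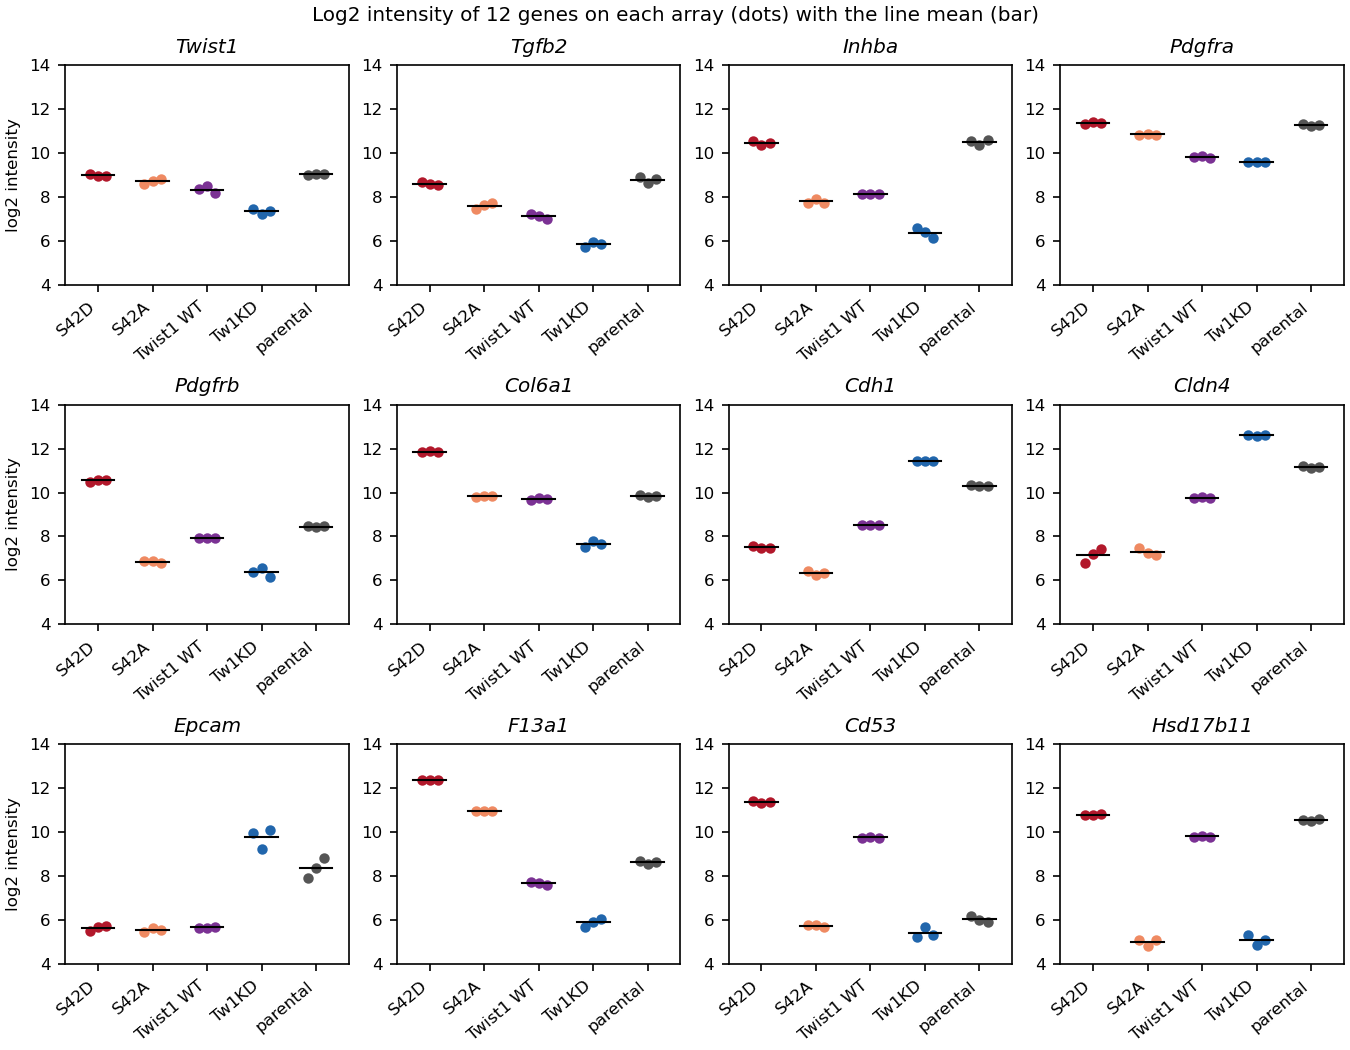
Log2 intensity (vertical axis) of 12 genes on each array (dots) with the mean of the 3 arrays (bar), by line from S42D on the left to parental on the right. Tgfb2, Inhba, Pdgfra and Hsd17b11 in S42D lie close to the parental level, while Cdh1, Cldn4 and Epcam lie far below both Tw1KD and parental cells and Pdgfrb, Col6a1 and F13a1 above both.

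Among 19 transcription factors linked to the transition, 9 were called higher and 1 lower (median 0.0642), beside 21.7% of all genes in each direction. Besides Twist1, the largest differences were in the E-cadherin repressor gene Zeb2 (10.47, 10.45 and 10.39 in S42D, against 9.47, 9.36 and 9.55 in Tw1KD; 0.98 ± 0.046), Ets1 (0.72 ± 0.040) and Snai1 (0.52 ± 0.054). Foxc2 was lower (-0.16 ± 0.054), a call lost in 7 of the alternatives. The Id proteins bind helix-loop-helix factors without DNA contact, and their genes split: Id2 (12.26, 12.28 and 12.18 in S42D, against 11.18, 10.96 and 11.02 in Tw1KD; 1.18 ± 0.053) and Id4 (0.47 ± 0.076) were higher, and Id3 (-1.28 ± 0.082) and Id1 (-0.86 ± 0.051) lower. The dimerization partner gene Tcf4 was higher by 0.40 ± 0.035. Of 15 genes reported as Twist1 targets, 6 were higher and 4 lower (median 0.00343), beside the same 21.7% of all genes in each direction. Tgfb2, Ccl2 (2.32 ± 0.16), Pdgfra, Esr1 (0.82 ± 0.055) and Akt2 (0.15 ± 0.035) were among the higher ones, and Cdh1, Foxa1, Cd24a (-0.77 ± 0.067) and Bmi1 (-0.67 ± 0.059) were the lower ones.

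Ligands of the TGF-beta family, secreted dimers that signal through Smad proteins, showed 2 large rises in a list that was otherwise mixed. Of 22 members, 5 were higher and 4 lower (median -0.00926), close to the 21.7% of all genes called in each direction. Inhba, which encodes the activin A subunit, had 10.57, 10.36 and 10.48 in S42D, against 6.57, 6.42 and 6.13 in Tw1KD (4.09 ± 0.099, 17.1-fold). Tgfb2, the ligand TGF-beta 2, had 8.70, 8.57 and 8.56 in S42D, against 5.71, 5.97 and 5.87 in Tw1KD (2.76 ± 0.090, 6.77-fold). No arrays overlapped for either ligand. The activin-binding antagonist Fstl3 (-1.36 ± 0.037), the latency protein gene Ltbp4 (-0.69 ± 0.039) and Bmp7 (-0.42 ± 0.049) were lower, and Tgfb1 was higher by only 0.22 ± 0.039.

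Receptors, Smads and their inhibitors were called higher for 11 of 23 members and lower for 5 (median 0.0652), beside 21.7% of all genes in each direction. The co-receptor genes Tgfbr3 (11.49, 11.51 and 11.52 in S42D, against 9.87, 9.78 and 9.90 in Tw1KD; 1.66 ± 0.049) and Eng (0.80 ± 0.037), the type II receptor gene Tgfbr2 (0.71 ± 0.037) and the inhibitory Smad6 (0.90 ± 0.049) were higher. The type I receptor genes Tgfbr1 (-0.30 ± 0.045) and Acvr1b (-0.41 ± 0.065) were lower. Among 18 response genes, 8 were higher and 4 lower (median 0.0158): the matricellular genes Thbs1 (1.95 ± 0.042), Ccn2 (1.88 ± 0.047) and Ccn1 (1.65 ± 0.037) and the feedback inhibitor Smad7 (0.52 ± 0.043) were higher. Itgb6 (-1.36 ± 0.077) and Pmepa1 (-1.05 ± 0.039), known as TGF-beta-induced in other settings, were lower.

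PI3K-Akt components differed in both directions, with 13 of 27 higher and 9 lower (median 0.144), beside 21.7% of all genes in each direction. The lipid phosphatase gene Inpp5d (9.04, 8.86 and 8.94 in S42D, against 7.26, 7.21 and 7.23 in Tw1KD; 1.71 ± 0.061), the kinase gene Mtor (10.84, 10.87 and 10.83 in S42D, against 9.59, 9.69 and 9.68 in Tw1KD; 1.19 ± 0.044) and the regulatory subunit gene Pik3r1 (1.19 ± 0.055) were higher. The adaptor gene Irs1 was called higher by its brightest probe set (1.08 ± 0.061) but not by its second one (0.13, adjusted p = 0.33). The phosphatase genes Inpp4b (-1.15 ± 0.12) and Phlpp2 (-0.98 ± 0.050), the catalytic subunit gene Pik3cb (-0.70 ± 0.063) and Foxo3 (-0.41 ± 0.061) were lower. A list of brakes and response genes of the ERK kinases had 14 of 19 members higher and 4 lower (median 0.291). This list was divided by family after its values were seen, so the division is a description only. Of its 6 Sprouty and Spred genes, 5 were higher and none lower, and of its 7 Dusp phosphatase genes, 3 were higher and 4 lower. Of its 6 response genes, such as Egr1 and Fos, 6 were higher. Spry1 stood at 12.05, 12.06 and 12.04 in S42D, against 8.72, 8.72 and 8.75 in Tw1KD (3.32 ± 0.057, 9.98-fold).

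Matrix-degrading proteases and their inhibitors were called higher for 19 of 34 members and lower for 6 (median 0.168), beside 21.7% of all genes in each direction. Plat, the tissue plasminogen activator gene, had 10.54, 10.53 and 10.48 in S42D, against 7.30, 6.84 and 7.30 in Tw1KD (3.37 ± 0.091, 10.4-fold). The stromelysin gene Mmp3 had 12.17, 12.15 and 12.18 in S42D, against 9.27, 8.99 and 8.91 in Tw1KD (3.11 ± 0.072, 8.66-fold). Both stood clear of the Tw1KD arrays. The metalloproteinase gene Mmp19 (1.51 ± 0.045) and the serpin gene Serpinf1 (1.58 ± 0.071) were higher, and Adam8 (-2.67 ± 0.075), the serpin gene Serpinb5, or maspin (-2.63 ± 0.11), and Adamts1 (-0.76 ± 0.084) were lower.

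Cell-matrix receptors and laminins differed in both directions. Of 27 integrin and laminin genes, 15 were higher and 6 lower (median 0.245), beside 21.7% of all genes in each direction. The collagen receptor chain Itga1 was higher (10.78, 10.85 and 10.79 in S42D, against 8.24, 8.03 and 8.37 in Tw1KD; 2.60 ± 0.072). Another collagen receptor chain, Itga2, was lower (7.79, 7.68 and 7.45 in S42D, against 10.70, 10.72 and 10.76 in Tw1KD; -3.09 ± 0.090). The laminin receptor chain Itga7 (2.04 ± 0.070) and the laminin chain gene Lamb2 (1.04 ± 0.041) were higher. Lamb3, a chain of the laminin under epithelia, was lower (-2.99 ± 0.060).

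Secreted signals outside these families included the insulin-like growth factor binding protein gene Igfbp7, with 12.84, 12.81 and 12.84 in S42D, against 9.01, 8.55 and 8.98 in Tw1KD (3.98 ± 0.087). The vascular factor genes Angpt1 (3.38 ± 0.091), Vegfc (1.78 ± 0.086) and Vegfd (1.66 ± 0.091) were higher and Vegfb was lower (-0.43 ± 0.041), within a list of 21 where 8 were higher and 1 lower. Cytokines and chemokines were mixed, with 11 of 33 higher and 10 lower (median -0.00761), beside 21.7% of all genes in each direction. The alarmin gene Il33 (10.65, 10.58 and 10.53 in S42D, against 8.24, 7.64 and 8.29 in Tw1KD; 2.53 ± 0.14), the monocyte attractant gene Ccl2, Il15 (1.64 ± 0.12) and Csf2 (1.47 ± 0.17) were higher. Il24 (5.24, 5.31 and 5.56 in S42D, against 9.56, 9.69 and 9.73 in Tw1KD; -4.29 ± 0.099), Cxcl16 (-1.88 ± 0.11), Lif (-1.11 ± 0.078) and Csf3 (-1.05 ± 0.075) were lower. The Csf2 levels of S42D spread widely, at 7.28, 6.81 and 6.36, above 5.29, 5.49 and 5.25 in Tw1KD.

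Interferon response genes were split, with 11 of 30 higher and 10 lower (median -0.0423), beside 21.7% of all genes in each direction. Ifit2 was higher by 3.82 ± 0.084, Ifit3 by 2.09 ± 0.059 and the RNA sensor gene Ifih1 by 1.17 ± 0.073, whereas Irf5 (-2.0 ± 0.077), Oasl1 (-1.49 ± 0.064) and Irf9 (-0.98 ± 0.040) were lower. Among 13 antigen presentation genes, the immunoproteasome genes Psmb8 (0.64 ± 0.12) and Psmb9 (0.49 ± 0.061) and the peptide-loading gene Tapbp (0.42 ± 0.038) were among 4 called higher, and the proteasome activator gene Psme1 was lower (-0.62 ± 0.062).

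Mitosis genes were higher in S42D by modest amounts, for 23 of 25 members, with 1 lower and a median of 0.562. The mitotic kinesin gene Kif20a had 11.12, 11.11 and 11.10 in S42D, against 9.70, 9.56 and 9.72 in Tw1KD (1.45 ± 0.047). Kif23 (1.03 ± 0.050), the kinetochore gene Cenpf (1.02 ± 0.058) and the phosphatase gene Cdc25c (0.99 ± 0.076) were higher, and Mybl2 was lower (-0.29 ± 0.061). DNA replication genes were higher for 15 of 28 and lower for 2 (median 0.169), with Tyms (1.03 ± 0.048), Rrm1 (0.61 ± 0.050) and Mcm6 (0.58 ± 0.045) higher and the licensing factor gene Cdt1 lower (-0.45 ± 0.037). The inhibitor gene Cdkn2d (1.11 ± 0.078) was higher, and the cyclin gene Ccnd2 (-0.88 ± 0.035) and the retinoblastoma gene Rb1 (-0.61 ± 0.049) were lower.

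Beside the 21.7% of all genes called each way, amino acid stress genes were more often lower than higher, and cholesterol synthesis genes more often higher than lower. Of 22 amino acid stress genes of the Atf4 response, 15 were lower and 1 higher (median -0.36), with Atf3 (8.70, 8.46 and 8.37 in S42D, against 10.23, 10.10 and 10.16 in Tw1KD; -1.65 ± 0.066), Sesn2 (-1.21 ± 0.094), Trib3 (-1.20 ± 0.050) and the glutathione-degrading enzyme gene Chac1 (-1.20 ± 0.050) lower. Of 19 p53 response genes, 11 were lower and 3 higher (median -0.296), among them Perp, Trp53inp1 (-1.28 ± 0.073) and the death receptor gene Tnfrsf10b (-1.23 ± 0.048). Cholesterol synthesis genes were higher for 14 of 19 and lower for 1 (median 0.46). The sterol sensor partner Insig1 (12.09, 12.08 and 12.03 in S42D, against 10.92, 10.81 and 10.84 in Tw1KD; 1.21 ± 0.043), Lss (0.88 ± 0.052) and Hsd17b7 (0.86 ± 0.053) were higher, and the reductase gene Tm7sf2 was lower (-0.74 ± 0.080). Endoplasmic reticulum chaperones were higher for 9 of 18 and lower for 4 (median 0.0917), and hypoxia and glycolysis genes had 10 of 31 in each direction, with Car12 (2.05 ± 0.049) and P4ha1 (0.79 ± 0.036) higher and Pfkfb4 (-1.96 ± 0.059) and Adm (-1.72 ± 0.12) lower.

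The other lists gave mixed calls, to be read beside the 21.7% of all genes called in each direction. Of 15 genes of the PGC-1 coactivators and mitochondrial regulators, 6 were higher and 4 lower, led by Ppargc1a (1.71 ± 0.12) and Gabpa (0.87 ± 0.054). Mammary lineage genes had 7 of 29 in each direction, a share close to the 21.7% of all genes, with Notch1 (0.39 ± 0.056) higher. Among 14 cyclin and inhibitor genes, 7 were higher and 3 lower. Of 11 housekeeping genes, Gusb (1.23 ± 0.041) and Sdha (0.10 ± 0.038) were called higher and Pgk1 lower (-0.10 ± 0.040). The call of Sdha was lost in 8 alternatives and that of Pgk1 in 9.

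The largest rise was in F13a1, the gene of the coagulation transglutaminase factor XIII A. It had 12.37, 12.39 and 12.38 in S42D, against 5.67, 5.92 and 6.05 in Tw1KD (6.50 ± 0.074, 90.5-fold). Cd53, a leukocyte tetraspanin gene, had 11.40, 11.33 and 11.37 in S42D, against 5.24, 5.67 and 5.30 in Tw1KD (5.96 ± 0.093, 62.5-fold). Cd28, known as the T cell costimulatory receptor, had 11.47, 11.42 and 11.43 in S42D, against 5.56, 5.42 and 5.81 in Tw1KD (5.84 ± 0.079, 57.5-fold). For each of these the S42D arrays were within 0.1 log2 of each other and more than 5 log2 units above Tw1KD. Cdh5, the gene of VE-cadherin of endothelium, had 10.66, 10.70 and 10.65 in S42D, against 5.98, 5.88 and 6.12 in Tw1KD (4.68 ± 0.087). Csf2rb, the chain shared by the receptors for GM-CSF and interleukin-3, had 12.07, 12 and 11.99 in S42D, against 7.74, 7.59 and 7.80 in Tw1KD (4.31 ± 0.098). Csf2rb has a near-identical relative, so the copy that is read is uncertain. Trim30a (4.63 ± 0.089), the basophil protease gene Mcpt8 (4.43 ± 0.13), Serpinb8 (4.30 ± 0.073) and the complement inhibitor gene Cd59a (4.17 ± 0.15) were higher too. They belong to families of related genes, and whether their probe sets also read relatives was not checked.

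The marker lists of leukocytes and endothelium are given beside these genes. Their counts are to be read beside the 21.7% of all genes called in each direction. Of 13 leukocyte markers, 3 were higher (Cd53, Lyz2 and Cd68) and 2 lower (Lcp1 at -2.08 ± 0.083 and Cd14 at -1.14 ± 0.10), and Ptprc, Adgre1, Csf1r, Itgam, Cd3e and Cd79a were not called. The summed log2 level of the leukocyte list was 84.9 to 85.8 on S42D arrays and 81.2 to 83.0 on Tw1KD arrays. Without Cd53, left out after its value was seen, the other 12 markers summed to 73.5 to 74.4 on S42D arrays and 75.9 to 77.3 on Tw1KD arrays, so Cd53 alone made the sum higher in S42D. Of 10 endothelial markers, Cdh5 alone was higher and 4 were lower (Tie1, Esam, Egfl7 and Emcn), while Pecam1, Kdr, Tek, Vwf and Cldn5 were not called, with sums of 64.0 to 65.7 on S42D arrays and 61.1 to 62.3 on Tw1KD arrays. Without Cdh5, left out in the same way, the other 9 summed to 53.4 to 55.1 on S42D arrays and 55 to 56.4 on Tw1KD arrays. The call of Lyz2 was lost in 4 alternatives, that of Egfl7 in 4 and that of Emcn in 9. No marker of these lists stood at 0, since array values have no true 0, but Ptprc and Itgam lay below 5.5 log2 in both lines. The part of such cells in these rises was not tested.

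The remaining members of the 20 largest rises were the lipid-droplet dehydrogenase gene Hsd17b11 (10.78, 10.78 and 10.83 in S42D, against 5.31, 4.83 and 5.10 in Tw1KD; 5.72 ± 0.098), Angptl7 (5.40 ± 0.086), the peroxisomal oxidase gene Hao1 (4.68 ± 0.10), the sialyltransferase gene St3gal6 (4.45 ± 0.067) and Stc1 (3.94 ± 0.071). Of the 20 largest falls outside the epithelial lists, the palmitoyltransferase gene Zdhhc23 differed by -4.51 ± 0.13, the aspartoacylase gene Aspa by -4.19 ± 0.11, Dynap by -4.08 ± 0.14, the creatine synthesis gene Gatm by -3.95 ± 0.11 and Dbt, a subunit of the branched-chain ketoacid dehydrogenase, by -3.90 ± 0.051. The dipeptidase genes Dpep2 (-3.71 ± 0.060) and Dpep1 (-3.57 ± 0.089), the long noncoding RNA Lncenc1 (-3.62 ± 0.088), Anxa8 (-3.52 ± 0.11), Lrmda (-3.52 ± 0.11) and the signalling ligand gene Wnt7a (-3.51 ± 0.091) completed them. No S42D array overlapped a Tw1KD array for any of these 40 genes, as the naming rule required.

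**Figure D4:**
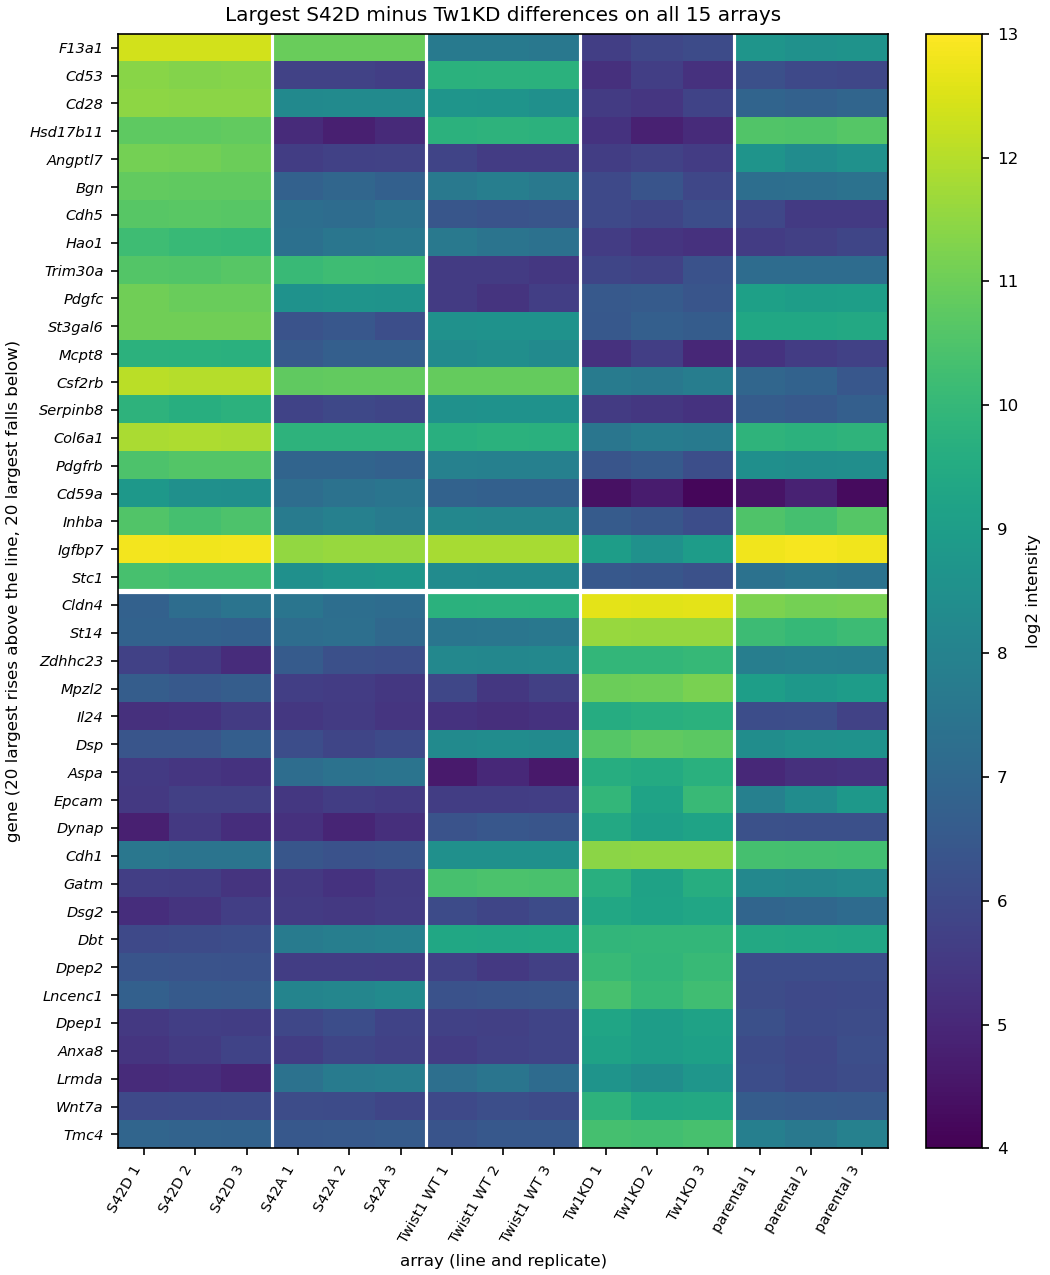
Log2 intensity (colour, dark purple low and yellow high) of the 20 largest rises (above the white line) and 20 largest falls (below it) in S42D against Tw1KD, with genes in rows and the 15 arrays in columns grouped by line. Igfbp7, Inhba and Hsd17b11 are nearly as bright in parental cells as in S42D, and Aspa and Dpep2 are nearly as dim.

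S42D also differed widely from the cells before depletion. Of 19937 genes, 7378 were called between S42D and parental cells (37%), with 3944 higher (19.8%) and 3434 lower (17.2%); without overlap of arrays these shares were 19.6% and 16.2%. The higher share was 53.5% of calls as deposited, 73% after median centring of the arrays and 49.2% with array weights, so it depends on the processing. Several genes that rose over Tw1KD were not called against parental cells: Inhba (-0.031 ± 0.099, adjusted p = 0.84), Igfbp7 (0.0035 ± 0.087, 0.98), Tgfb2 (-0.16 ± 0.090, 0.2), Pdgfra (0.092 ± 0.043, 0.11), Ccn1 (0.053 ± 0.037, 0.29), Itga1 (0.12 ± 0.072, 0.23) and Hsd17b11 (0.24 ± 0.098, 0.076). With median centring Pdgfra was called higher in S42D than in parental cells (0.17, adjusted p = 0.028), and with array weights Tgfb2 was called lower (-0.21, adjusted p = 0.039).

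Other genes lay beyond the parental level in S42D. Cldn4 was -4.01 ± 0.12 from parental cells, Cdh1 -2.81 ± 0.045, St14 -3.32 ± 0.060, Epcam -2.73 ± 0.21 and Dsp -2.03 ± 0.087, so these epithelial transcripts were lower in S42D than before depletion. Of 18 tight junction and polarity genes, 10 were lower than in parental cells and 4 higher, and of 11 epithelial surface genes 7 were lower and 1 higher. Cd53 (5.33 ± 0.093), Csf2rb (5.27 ± 0.098), Cdh5 (5.0 ± 0.087), Cd28 (4.57 ± 0.079), Hao1 (4.37 ± 0.10) and Mcpt8 (4.21 ± 0.13) were the largest rises over parental cells. Mitosis genes were higher than in parental cells for 24 of 25 members and replication genes for 24 of 28, with none lower in either list (medians 0.418 and 0.48).

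Some genes, whose number was not counted, stayed near the Tw1KD level, and Sfrp1 and Cxcl15 are given as examples. Sfrp1, a secreted Wnt antagonist gene, had 5.13, 5.17 and 5.19 in S42D, against 5.27, 5.25 and 5.18 in Tw1KD, while its parental levels were 9.49, 9.16 and 9.41. Cxcl15 had 4.54, 4.69 and 4.91 in S42D, against 5.03, 4.85 and 4.77 in Tw1KD, while its parental levels were 8.83, 8.77 and 8.70. Neither gene was called between S42D and Tw1KD (adjusted p = 0.52 and 0.17), although Cxcl15 was called lower with array weights (-0.25, adjusted p = 0.028) and without S42D replicate 3 (-0.27, adjusted p = 0.03). Against parental cells they differed by -4.19 ± 0.081 and -4.06 ± 0.095. Trp53i11 (-4.18 ± 0.098), Ddah2 (-3.88 ± 0.14) and the chloride channel gene Ano1 (-3.40 ± 0.057) were among the largest falls from the parental level, and all 3 were also lower than in Tw1KD (-2.11, -2.30 and -3.42).

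Against the line with wild-type Twist1, 8630 genes were called (43.3%), with 4133 higher (20.7%) and 4497 lower (22.6%) in S42D, 961 of them at least 2-fold. Without overlap of arrays, 20.5% were higher and 22.4% lower. This comparison and the one with Tw1KD share the S42D arrays. Interferon response genes were higher in S42D than in WT for 21 of 30 members and lower for 3 (median 0.541), and antigen presentation genes for 11 of 13 with none lower (median 0.728). Replication genes were lower for 25 of 28 (median -0.533), mitosis genes for 18 of 25 (median -0.308) and cholesterol synthesis genes for 15 of 19 (median -0.706). The median over all genes was 0.0105.

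Single genes differed more widely between S42D and WT. Spry1, which encodes a brake on receptor tyrosine kinase signalling, had 12.05, 12.06 and 12.04 in S42D, against 6.94, 6.85 and 7.14 in WT (5.08 ± 0.057). Pdgfc had 11.04, 10.94 and 10.95 in S42D, against 5.55, 5.35 and 5.66 in WT (5.46 ± 0.073). Angptl7 had 11.13, 11.10 and 10.99 in S42D, against 5.86, 5.61 and 5.61 in WT (5.38 ± 0.086). In each of these 3 genes every S42D array was more than 4 log2 units above every WT array. Xlr (5.57 ± 0.20), Trim30a (5.08 ± 0.089), Il33 (4.72 ± 0.14), F13a1 (4.72 ± 0.074), Itga8 (4.55 ± 0.069), Car12 (4.54 ± 0.049) and Tfpi (4.44 ± 0.10) completed the 10 largest rises, and the Xlr family holds near-identical copies. The largest falls were in Gatm (5.67, 5.62 and 5.34 in S42D, against 10.37, 10.45 and 10.41 in WT; -4.87 ± 0.11), Tmem185b (-4.39 ± 0.054), Trim44 (-3.75 ± 0.063), Dbt (-3.32 ± 0.051) and Aldh1l2 (-3.04 ± 0.11). The epithelial genes Cldn4 (-2.61 ± 0.12), Dsp (-1.86 ± 0.087) and Cdh1 (-1.02 ± 0.045) were lower in S42D than in WT, while Perp was higher (2.18 ± 0.091) and Epcam was not called (-0.026 ± 0.21, adjusted p = 0.95).

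Against S42A, the line with the other substitution at the same residue, 7205 genes were called (36.1%), with 3400 higher (17.1%) and 3805 lower (19.1%) in S42D, 630 of them at least 2-fold. Without overlap of arrays, 16.8% were higher and 18.7% lower. Interferon response genes were lower in S42D than in S42A for 24 of 30 members and higher for 4 (median -0.608). The viperin gene Rsad2 (-2.73 ± 0.057), Cmpk2 (-3.04 ± 0.060) and Oasl1 (-2.33 ± 0.064) were lower, and Ifih1 was higher (1.02 ± 0.073). Cholesterol synthesis genes were lower for 16 of 19 (median -0.614), mitosis genes for 20 of 25 (median -0.226) and replication genes for 13 of 28 (median -0.207). The median over all genes was -0.0345.

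Hsd17b11 had 10.78, 10.78 and 10.83 in S42D, against 5.10, 4.79 and 5.06 in S42A (5.82 ± 0.098). Cd53 had 11.40, 11.33 and 11.37 in S42D, against 5.76, 5.77 and 5.67 in S42A (5.63 ± 0.093). The semaphorin gene Sema7a had 11.91, 11.97 and 11.93 in S42D, against 6.40, 6.75 and 6.47 in S42A (5.39 ± 0.086). In all 3 genes the arrays of the lines were more than 5 log2 units apart. Angptl7 (5.36 ± 0.086), Gstm5 (4.90 ± 0.081), St3gal6 (4.75 ± 0.067), the aldolase gene Aldoc (4.6 ± 0.079), Slc36a4 (4.57 ± 0.075), Bckdhb (4.39 ± 0.11) and Hexa (4.33 ± 0.13) followed. Aldoc, Bckdhb and Hexa differed far less between S42D and Tw1KD (0.35, -0.33 and -0.58), and the call of Bckdhb there was lost without S42D replicate 1 or 2 or Tw1KD replicate 1 or 3. The largest falls were in the scaffold gene Cask (5.08, 5.04 and 5.40 in S42D, against 9.56, 9.80 and 9.63 in S42A; -4.49 ± 0.10), Lurap1l (-4.05 ± 0.077), Trp53i11 (-3.91 ± 0.098), Adal (-3.44 ± 0.15) and Mboat2 (-3.42 ± 0.10). The epithelial genes Cdh1 (1.17 ± 0.045), Krt19 (2.62 ± 0.081) and Perp (3.70 ± 0.091) were higher in S42D than in S42A, and the differences in Cldn4 (-0.15 ± 0.12) and Epcam (0.082 ± 0.21) were not called (adjusted p = 0.42 and 0.83).

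The differences of the 3 lines over Tw1KD can be set side by side for the main members, with the caution that they share the Tw1KD arrays. Over all genes, 42.5% were called between S42A and Tw1KD (22.8% higher, 19.7% lower) and 48% between WT and Tw1KD (23.5% higher, 24.5% lower). Without overlap of arrays the shares were 22.2% and 18.9% for S42A and 23.2% and 23.1% for WT. Tgfb2 differed from Tw1KD by 2.76 in S42D, 1.75 in S42A and 1.27 in WT. Inhba differed by 4.09 in S42D, 1.42 in S42A and 1.77 in WT. Pdgfra differed by 1.78 in S42D, 1.25 in S42A and 0.24 in WT. For all 3 genes the S42D arrays were above those of both other lines, and S42D minus S42A was 1.01 ± 0.090, 2.67 ± 0.099 and 0.53 ± 0.043 for Tgfb2, Inhba and Pdgfra. Cdh1 differed from Tw1KD by -3.95 in S42D, -5.12 in S42A and -2.94 in WT, so S42D lay between the other lines. F13a1 differed by 6.50 in S42D, 5.07 in S42A and 1.78 in WT. Mmp3 differed by 3.11 in S42D, 3.09 in S42A and 3.0 in WT, and its S42D level was not called against either line (adjusted p = 0.84 against S42A and 0.23 against WT).

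Some genes set S42D apart from all 4 other lines. The 10 furthest above were Cdh5, Slc14a1, Bgn, Mxra8, Caps2, Cd28, Sema7a, Tfpi, Hao1 and Ceacam10, each called against every line and 2.605 to 3.406 log2 above the nearest line mean. The urea transporter gene Slc14a1 had 11.86, 11.70 and 11.80 in S42D, while the means of the other lines were 7.92 in S42A, 7.77 in WT, 7.86 in Tw1KD and 8.53 in parental cells. Mxra8, known as an alphavirus receptor, had 10.82, 10.76 and 10.82 in S42D, while the means were 7.80 in S42A, 6.70 in WT, 6.94 in Tw1KD and 7.37 in parental cells. In both genes every S42D array was above every array of the other lines. Ceacam10 belongs to a family of similar genes, so the copy that is read is uncertain.

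The 10 furthest below were Tmem185b, Rassf6, Trim44, Lurap1l, Lcmt2, Wdr31, Dusp22, S100a1, Dbt and Cyp1b1, with differences of -2.873 to -1.62 log2 from the nearest line mean. Tmem185b had 6.07, 6.27 and 6.06 in S42D, while the means were 9.0 in S42A, 10.53 in WT, 9.26 in Tw1KD and 9.05 in parental cells. Dbt had 5.97, 6.06 and 6.11 in S42D, while the means were 7.84 in S42A, 9.37 in WT, 9.95 in Tw1KD and 9.38 in parental cells. The tumour suppressor relative Rassf6 had 5.88, 5.89 and 5.59 in S42D, while the means were 8.79 in S42A, 8.81 in WT, 9.22 in Tw1KD and 8.46 in parental cells. In these 3 genes every S42D array was more than 1 log2 unit below every array of the other lines. Both sets were chosen by their distance from all other lines, so the distances are a description. With 1 line per construct, a property of the line, its Twist1 level and an effect of the substitution cannot be told apart.

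**Figure D5:**
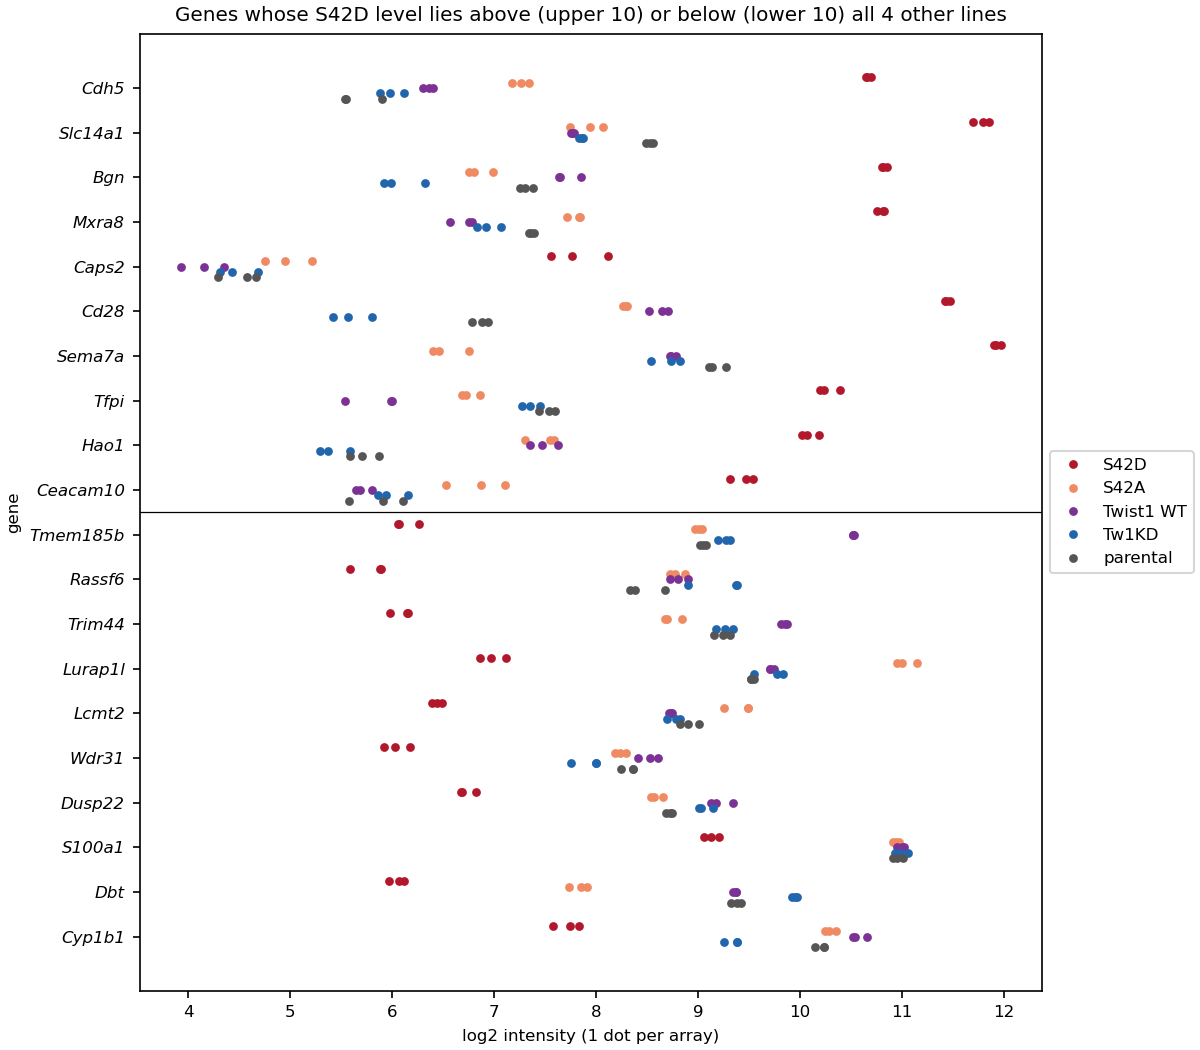
Log2 intensity (horizontal axis, 1 dot per array, coloured by line) of the 10 genes furthest above and the 10 furthest below all other lines in S42D. The red S42D dots of the upper genes lie 2.605 to 3.406 log2 above the mean of the nearest line, and those of the lower genes differ from it by -2.873 to -1.62.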

How the data were processed

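Total RNA of 15 arrays from 5 mouse cell lines, 3 per line, was measured as whole-transcript expression, after purification with an RNeasy kit and labelling with biotin through an Ambion kit, per the labels' protocols. The deposited values are log2 intensities for 34760 probe sets, a unit read from the values. R 2.10.0 and affy appear in the submitters' processing notes without a role, and how background was corrected and arrays normalized is not given in the sources used here. Groups came from sample titles.

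Of the probe sets, 21640 had 1 gene symbol, 1321 several and 11799 none. Of those with 1 symbol, 21553 took the symbol listed for their gene number in the GRCm38.p6 gene table, whether or not it differed. The brightest probe set with 1 symbol stood for its gene, which gave 19937 genes, 954 of them with more than 1 probe set. No filter on dim genes was used. limma 3.58.1 in R 4.3.3 fitted a mean per line over all 15 arrays, and its 2-sided moderated test was adjusted by Benjamini-Hochberg over all genes, with calls at an adjusted p under 0.05. Errors after ± are standard errors of differences. The procedure was tested on simulated data. Large changes in dim genes are understated, since signals near background compress differences.

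Named genes were called with arrays that did not overlap: the 20 largest rises and falls against Tw1KD, up to 4 members per list and direction, the 10 largest each way against WT and S42A, the 6 largest each way against parental cells, and up to 10 each way apart from all lines. A fixed set was added whatever its result (Twist1, Tgfb2, Cdh1, Cdh2, Vim, Fn1, Snai2, Pdgfra, Krt8, Krt18, Epcam, Akt2 and Bmi1), and predicted or clone-named genes were passed over. Other genes named with values in the text were chosen after their values were seen. The members and the gene lists were chosen with earlier results of these data known. Alternatives were median centring, quantile normalization, a dim-gene filter, 2-line fits, a second probe set, trended and robust eBayes, array weights, a replicate block and each replicate left out. RefSeq promoters (GRCm38.p6) were searched for E-boxes.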

Additional observations from a re-analysis of the deposited data

Results flagged for a closer look

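Only the 278 named genes were screened here, so the counts do not cover all genes. Some of them had been named for large differences between S42D and WT or S42A. For 9 named genes, S42D and WT differed from Tw1KD in opposite directions, each called and at least 2-fold. A gene was listed only if limma also called the difference between S42D and WT. That difference and its adjusted p therefore describe the selection and are no separate test of it. Both differences use the same Tw1KD arrays. Spry1 differed from Tw1KD by 3.32 in S42D and -1.76 in WT, and S42D minus WT was 5.08 ± 0.057 (log2 ± SE, adjusted p = 5.4e-16). Il33 differed from Tw1KD by 2.53 in S42D and -2.19 in WT (S42D minus WT 4.72 ± 0.14, adjusted p = 5.4e-12). For Itga8, an integrin chain gene, the values were 1.03 in S42D and -3.52 in WT (4.55 ± 0.069, adjusted p = 6.9e-15). For the carbonic anhydrase gene Car12 they were 2.05 in S42D and -2.48 in WT (4.54 ± 0.049). For Tfpi, the gene of the tissue factor pathway inhibitor, they were 2.92 in S42D and -1.52 in WT (4.44 ± 0.1), and for Slc36a4 they were 3.4 in S42D and -1.02 in WT (4.42 ± 0.075). Ppargc1a, which encodes the coactivator PGC-1 alpha, stood at 1.71 in S42D and -1.72 in WT (3.43 ± 0.11, adjusted p = 1.3e-11). In the opposite sense, Tmem185b differed by -3.13 in S42D and 1.26 in WT (-4.4 ± 0.054) and the cytochrome P450 gene Cyp1b1 by -1.62 in S42D and 1.24 in WT (-2.86 ± 0.065, adjusted p = 2.9e-13).

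For 8 named genes the same held between S42D and S42A. Sema7a differed from Tw1KD by 3.23 in S42D and -2.16 in S42A (S42D minus S42A 5.39 ± 0.086, adjusted p = 9.3e-15). The glutathione transferase gene Gstm5 differed by 2.01 in S42D and -2.89 in S42A (4.9 ± 0.081), and Slc36a4 by 3.4 in S42D and -1.16 in S42A (4.57 ± 0.075). Lower in S42D and higher in S42A were Lurap1l (-2.74 and 1.32, difference -4.05 ± 0.077), Trp53i11 (-2.11 and 1.8, difference -3.91 ± 0.098), Mboat2 (-1.15 and 2.27, difference -3.42 ± 0.1), Otop1 (-1.27 and 2.04, difference -3.31 ± 0.066) and Edil3 (-1.64 and 1.51, difference -3.16 ± 0.091, adjusted p = 3.1e-12). Slc36a4 met the condition against both lines. Lines of 3 arrays were not screened for single outlying arrays.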

How the results depend on the processing

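The number of genes called between S42D and Tw1KD, 8646 as reported, was 7646 with only those arrays fitted and 9773 with array weights, and lay between these under the other alternatives. Leaving out 1 replicate at a time gave 7923 to 8881 genes against Tw1KD, 7967 to 8284 against WT, 6525 to 6805 against S42A and 6222 to 7416 against parental cells. Labels give replicate numbers, and the deviations of same-numbered S42D and Tw1KD arrays correlated at 0.14, 0.11 and -0.35, with 1 of 3 S42D arrays closest to its own number, so the numbers were not taken as pairing; with a replicate block 8544 genes were called against Tw1KD, 8468 against WT, 7028 against S42A and 7129 against parental cells. Median centring moved the higher share of calls against parental cells to 73%, where 53.5% was reported. For named genes, no direction reversed where the reported or the recomputed difference was called. Sign changes of differences called in neither fit were not counted. For 278 named genes against Tw1KD, 3541 of 3610 recomputed values kept the call or its absence, 65 lost the call and 4 gained it, in 20 genes. Against WT, S42A and parental cells 616 of 620, 635 of 635 and 540 of 544 kept it. Signal near background limits what can be said of dim genes.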

Other observations

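The 20 genes furthest from all other lines in S42D were set beside their neighbours in gene order, taken from the GRCm38.p6 gene table, as the difference between S42D and the mean of the other lines. The neighbours, 2 on each side, ranged from -2.42 to 1.62. Cd28 differed by 4.1, while Ctla4 and Icos, which encode related receptors beside it, differed by -0.06 and -0.09. Cdh5 differed by 4.35, while the adjacent cadherin gene Cdh11 differed by -0.31. The highest values among neighbours of the higher genes were those of the lectin gene Siglec15 at 1.62 beside Slc14a1 at 3.77, Calcrl at 1.41 beside Tfpi at 3.41, Haus7 at 1.08 beside Bgn at 3.84 and Tmx4 at 0.72 beside Hao1 at 3.57. Among the lower genes, Adal differed by -2.42 beside Lcmt2 at -2.52, and the chemokine genes Cxcl5 and Ppbp differed by -1.38 and 1.05 beside Rassf6 at -3.04. Genes with no probe set used here were passed over in this order.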
